A study of Mus musculus with 675 samples.

Results

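The 9 genes described here encode vasodilator receptors that raise cAMP, their accessory proteins and the cyclase they act through: Ramp1, Ramp2, Ramp3, Calcrl, Ptgir, Ptger4, Vipr2, Adora2a and Adcy5. They were taken by name from the 46517 gene identifiers of the deposited table, without a cut-off on a measured value, though earlier results of these data were known. The series is an inventory of mouse smooth muscle, and its 675 cells with the tissue label aorta were profiled by Smart-seq2, which amplifies full-length cDNA of single sorted cells without molecular identifiers. The mice were male C57BL/6 aged 10 weeks with no treatment in the labels; pool A (54.4% of the cells) and pool B (45.6%) each combined 2 mice and filled a plate. The tissue label is followed here, although the protocol text speaks of the heart, and the sources used here do not give the sort gate.

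Many vasodilators act on smooth muscle through receptors coupled to the stimulatory G protein Gs. Gs activates adenylyl cyclases, which make cAMP, and protein kinase A then lowers the response of the contractile proteins to calcium. Calcrl encodes a receptor that reaches the surface with a receptor activity-modifying protein (RAMP): with Ramp1 it forms the receptor of calcitonin gene-related peptide (CGRP), and with Ramp2 or Ramp3 it forms adrenomedullin receptors. Ptgir encodes the prostacyclin receptor, Ptger4 the EP4 receptor of prostaglandin E2, Vipr2 the VPAC2 receptor of vasoactive intestinal peptide and Adora2a an adenosine receptor that couples to Gs. Adcy5 encodes a membrane-bound adenylyl cyclase that Gs activates.

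All 9 are protein-coding genes, placed here by GENCODE M21 on GRCm38. Ramp1 lies at chr1:91179822-91225196 (plus strand), Ramp2 at chr11:101246028-101259546 (plus), Ramp3 at chr11:6658521-6677475 (plus) and Calcrl at chr2:84330626-84425411 (minus). Ptgir lies at chr7:16906490-16910905 (plus), Ptger4 at chr15:5206661-5244187 (minus), Vipr2 at chr12:116077726-116146261 (plus) and Adora2a at chr10:75316877-75334784 (plus). Adcy5 lies at chr16:35154877-35305738 (plus).

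Cells were grouped by clustering on genes that were not tested, and clusters were named from marker genes. Smooth muscle-like (SMC-like) cells numbered 389 and made up 47.1% of pool A and 70.1% of pool B. Fibroblast-like cells numbered 38 in pool A and 21 in pool B, and endothelial-like cells 14 and 7. Another 3 clusters with 30.5% of the cells did not meet the rule for a name and were left out. The median cell held 328590 counts among SMC-like, 150246 among fibroblast-like and 227777 among endothelial-like cells. The pool is the replicate (n = 2), and effects of plate and of mice cannot be told apart. A level in CPM is a gene's count per 1000000 of the summed counts of a class in a pool, and CPM per kilobase of exon (CPM per kb) where genes are compared with each other. Without molecular identifiers, amplified reads are not independent molecules, so intervals cover counting error alone. All 7 smooth muscle markers were above 0 in every class, at 1882 and 3189 CPM summed in the fibroblast-like class (pool A, pool B) and 2197 and 3324 CPM in the endothelial-like class, against 20876 and 18781 CPM in SMC-like cells. The unnamed clusters also carried these markers, at 22684 and 21694 CPM summed in the largest (pool A, pool B). The cluster of 55 cells had 18537 and 18236 CPM, and that of 31 cells had 10539 and 13459 CPM. How many of the unnamed cells are smooth muscle was not tested.

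The deposited Ramp2 counts need a reading of their own, because Ramp2 and its neighbour Vps25, which encodes a subunit of an endosomal sorting complex, share exons on the same strand of chromosome 11. In the GENCODE M21 annotation (GRCm38) a Ramp2 transcript marked for nonsense-mediated decay runs through Vps25, and 1103 of the 3301 exonic bases of Ramp2 lie in exons of Vps25, where they make up 67.2% of the exonic bases of Vps25. A coding exon of Ramp2 outside Vps25 is shown, since a read in it can be counted for Ramp2 without an overlap with Vps25 (chr11:101247055-101247144, plus strand).
Ramp2 exon outside Vps25: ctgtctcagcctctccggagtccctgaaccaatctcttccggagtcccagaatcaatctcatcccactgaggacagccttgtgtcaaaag

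In SMC-like cells the Ramp2 count of a cell was nearly the Vps25 count of that cell. Over both pools these cells held 31021 counts of Ramp2 and 30969 counts of Vps25, and in the cells with a count of Vps25 the 2 numbers were equal in 68.5% and within 5 counts of each other in 96.2%. In fibroblast-like cells Ramp2 had 4957 counts and Vps25 had 1588, and the numbers were within 5 counts in 18 of 43 cells. In endothelial-like cells Ramp2 had 5268 counts and Vps25 had 788, and the numbers were within 5 counts in 1 of 16 cells. A read in a shared exon overlaps both genes, and the sources used here do not say how the counting treated it. The Ramp2 count of a cell less its Vps25 count, set to 0 where negative, is therefore given beside the deposited value, and is a lower bound on the counts in exons that Ramp2 does not share if shared reads were counted for both genes. This subtraction was chosen after the data were seen.

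**Figure D1:**
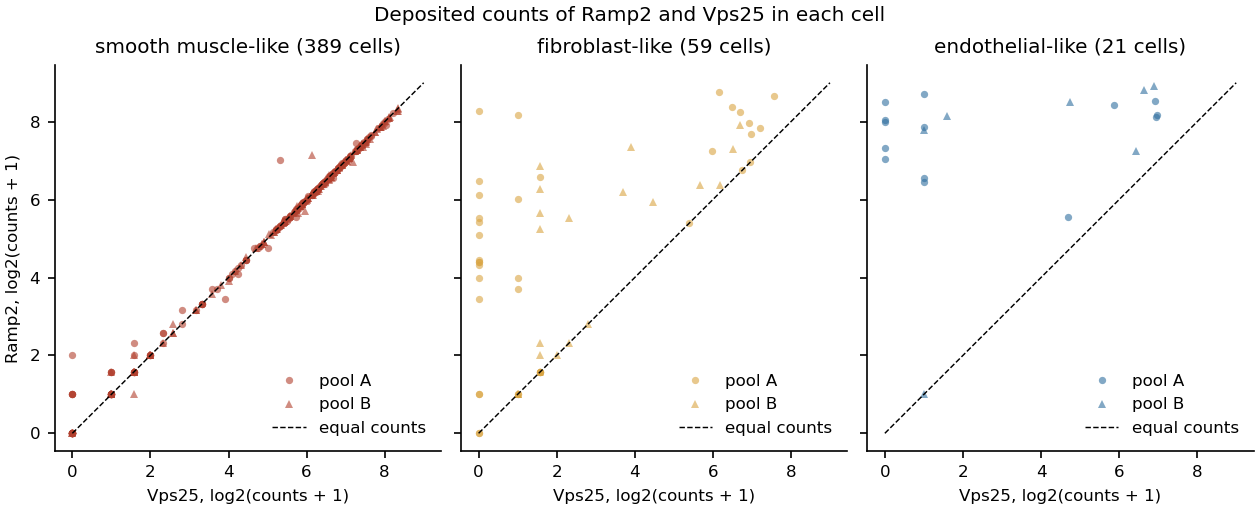
Deposited counts of Ramp2 (vertical axis) against Vps25 (horizontal axis), each as log2(counts + 1), in every SMC-like, fibroblast-like and endothelial-like cell; circles are cells of pool A, triangles cells of pool B, and the dashed line marks equal counts. Smooth muscle-like cells lie on the line, with 96.2% within 5 counts of it, while most fibroblast-like and endothelial-like cells lie above it.

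Among the accessory proteins, Ramp1 was the member with the highest level in SMC-like cells. It had 578 and 654 CPM in pools A and B of the SMC-like class, 20.4 and 60.9 CPM in the fibroblast-like class and 10.7 and 38.5 CPM in endothelial-like cells. Both SMC-like sums lay above the sums of the other classes, and the ranges of fibroblast-like and endothelial-like cells overlapped. Per cell, Ramp1 ran from 3.13 CPM to 1717 CPM in SMC-like cells, with a median of 603 CPM, and all 389 of these cells had a count. At 100 CPM or more were 96.4% of SMC-like cells (375 of 389; exact 95% interval 94 to 98%), 3.39% of fibroblast-like cells (2 of 59; 0.413 to 11.7%) and 0 of 21 endothelial-like cells (0 to 16.1%).

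At least 1 count of Ramp1 was found in 91.5% of fibroblast-like and 90.5% of endothelial-like cells as well. After each cell was thinned to 50000 counts, which left out no cell, these shares were 66.1% and 47.6%, against 98.7% of SMC-like cells. The level of Ramp1 outside SMC-like cells was 3.53% to 9.32% of theirs in fibroblast-like and 1.85% to 5.88% in endothelial-like cells. The 7 smooth muscle markers lay at 2.45% to 36% and at 2.07% to 34.4% of their SMC-like level in the same cells, and the part of RNA from other wells in the low Ramp1 counts was not tested.

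Ramp2 was read as deposited and less Vps25. As deposited it had 183.4 and 272.7 CPM in pools A and B of the SMC-like class, 572 and 366.5 CPM in the fibroblast-like class and 1079 and 1625 CPM in endothelial-like cells. Less Vps25 it had 2.67 and 1.65 CPM in SMC-like cells, 390.1 and 246.3 CPM in the fibroblast-like class and 931 and 1347 CPM in endothelial-like cells. The order of the 3 classes was the same in both readings and no 2 classes overlapped, but the SMC-like level lost all but 0.886% of its counts, while 68% remained in fibroblast-like and 85% in endothelial-like cells. Less Vps25, 2 of 389 SMC-like cells (0.514%; 0.0623 to 1.84%), 34 of 59 fibroblast-like cells (57.6%; 44.1 to 70.4%) and 20 of 21 endothelial-like cells (95.2%; 76.2 to 99.9%) reached 100 CPM. The 7 endothelial markers together had 94.3 and 57.5 CPM in pools A and B of the SMC-like class, 247.5 and 61.2 CPM in the fibroblast-like class and 7323 and 4999 CPM in endothelial-like cells. In the fibroblast-like class Pecam1 (77.3 and 18 CPM), Cldn5 (77.1 and 0.913 CPM) and Tek (70.4 and 41.1 CPM) held most of this sum, and Cdh5 (1.83 and 0 CPM) and Kdr (0.762 and 0.304 CPM) were near 0. The part of endothelial RNA in the Ramp2 counts of fibroblast-like cells was not tested.

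Ramp3 was close to absent. It had 1 count in 389 SMC-like cells and 0 counts in 59 fibroblast-like cells (upper 95% limit 0.375 CPM). Endothelial-like cells had 90 counts, all in 1 cell of pool A. The mix of RAMP genes differed between SMC-like cells and both other classes. Of the summed CPM per kb of the 3 genes, with Ramp2 less Vps25 over its 2198 unshared exonic bases, Ramp1 made up 99.4% and 99.6% in pools A and B of the SMC-like class, 3.67% and 15.2% in fibroblast-like cells and 0.79% and 2.03% in endothelial-like cells. Ramp2 made up 0.632% and 0.346% in SMC-like cells, 96.3% and 84.8% in fibroblast-like cells and 94.5% and 98% in endothelial-like cells. If shared reads were counted for both genes, Ramp2 less Vps25 is a lower bound. The Ramp1 shares are then upper bounds and the Ramp2 shares lower bounds.

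**Figure D2:**
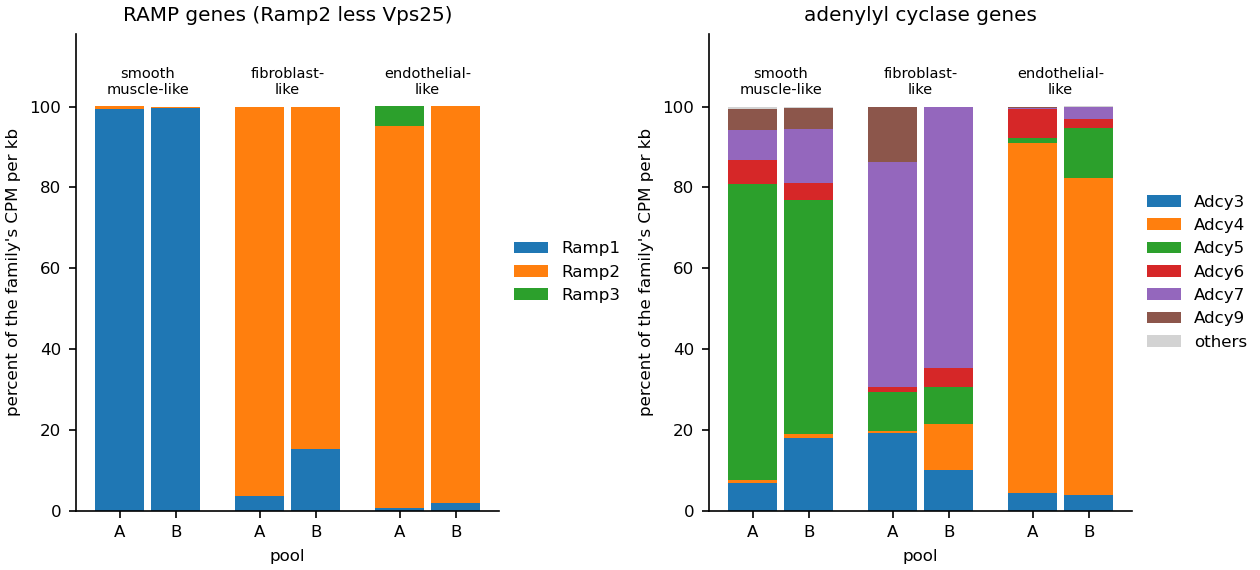
Share of each RAMP gene (left; Ramp2 less Vps25) and each adenylyl cyclase gene (right) in the family's summed CPM per kb, as stacked bars for each class and pool; genes under 2% in every bar are pooled as others. Ramp1 fills the SMC-like bars and Ramp2 the fibroblast-like and endothelial-like ones, and Adcy5, Adcy7 and Adcy4 are the largest cyclase shares of SMC-like, fibroblast-like and endothelial-like cells. Ramp2 less Vps25 is a lower bound if shared reads were counted for both genes.

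Calcrl, the receptor that these proteins accompany, was low in every class. It had 26.4 and 18.1 CPM in pools A and B of the SMC-like class, 22.1 and 0.304 CPM in the fibroblast-like class and 46.1 and 53.5 CPM in endothelial-like cells. The endothelial-like sums were above those of the other classes, and the SMC-like and fibroblast-like ranges overlapped. A count of Calcrl was found in 39.6% of SMC-like cells (34.7 to 44.6%), 20.3% of fibroblast-like cells (12 of 59; 11 to 32.8%) and 47.6% of endothelial-like cells (10 of 21; 25.7 to 70.2%), and in 22.6%, 10.2% and 28.6% of them after thinning. Per kb, Calcrl was at 4.55 ± 1.21 in SMC-like cells, where Ramp1 was at 203.8 ± 17.6 (SD, n = 2 pools).

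SMC-like cells carried Ramp1 with or without a count of Calcrl. Of the Calcrl-positive cells, 71 of 74 in pool A and 80 of 80 in pool B had 100 CPM or more of Ramp1, as did 92.9% and 97.1% of the cells with none. None of the Calcrl-positive cells had 100 CPM of Ramp2 less Vps25. In endothelial-like cells all 5 Calcrl-positive cells of each pool had 100 CPM or more of Ramp2 less Vps25, and 0 of them had 100 CPM of Ramp1. Of the endothelial-like cells with no count of Calcrl, 9 of 9 in pool A and 1 of 2 in pool B also had that level of Ramp2 less Vps25. The rank correlation of Calcrl and Ramp1 across thinned SMC-like cells was 0.07 and 0.077 within pools A and B (389 cells in all; those of a pool share plate and mice).

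Among the prostanoid receptors, Ptgir was rare in all 3 classes. It had 0.808 and 0.0787 CPM in pools A and B of the SMC-like class, 24.4 and 0.304 CPM in the fibroblast-like class and 0 and 59.4 CPM in endothelial-like cells. Single cells carried most of this: 72.7% of the fibroblast-like counts came from 1 cell of pool A, and all 71 endothelial-like counts from 1 cell of pool B. A count was found in 12 of 389 SMC-like cells (3.08%; 1.6 to 5.33%).

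Ptger4 was low as well. It had 2.98 and 4.05 CPM in SMC-like cells, 1.37 and 30.4 CPM in the fibroblast-like class and 35.4 and 137.1 CPM in endothelial-like cells. The endothelial-like counts of pool B came from 1 cell, and another held 63.3% of those of pool A. Of the SMC-like cells, 0 of 389 reached 100 CPM (0 to 0.944%). Ptger4 shares 82 exonic bases with Ttc33 on the opposite strand, and both genes had equal counts in 5.63% of the cells that held both; the sources used here do not say whether counting used strand.

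Among the 3 classes, Vipr2 was found almost entirely in fibroblast-like cells. It had 0.0538 and 0.0787 CPM in pools A and B of the SMC-like class, 107.3 and 104.4 CPM in the fibroblast-like class, and 0.325 and 0 CPM in endothelial-like cells, which is 9, 1047 and 1 counts over both pools. Both fibroblast-like sums lay above those of the other classes. An unnamed cluster held 81 counts of Vipr2, 96.3% of them in 1 cell. In fibroblast-like over SMC-like cells the ratio was 1992 in pool A (exact counting interval 679 to 9685) and 1327 in pool B (604 to 3642). In fibroblast-like over endothelial-like cells it was 330.5 in pool A (59.1 to 13072), and at least 41.6-fold higher in pool B against the limit of 3 counts. Within fibroblast-like cells Vipr2 was split: 16 of 38 cells of pool A and 6 of 21 cells of pool B had a count, and the highest cells had 1208 and 878 CPM. No SMC-like and no endothelial-like cell reached 100 CPM (0 to 0.944% and 0 to 16.1%), against 14 of 59 fibroblast-like cells (23.7%; 13.6 to 36.6%).

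Adora2a was highest in endothelial-like cells. It had 1.81 and 1.81 CPM in pools A and B of the SMC-like class, 5.03 and 80.1 CPM in the fibroblast-like class and 157.7 and 180.6 CPM in endothelial-like cells. The ranges of the 3 classes did not overlap, but the 2 fibroblast-like sums lay far apart, and 1 cell of pool B held 46.4% of the counts of its sum. The endothelial-like sum of pool B also rested on few cells: 2 of 7 had a count, and 1 of them held 81% of the counts. Adora2a reached 100 CPM in 4 of 389 SMC-like cells (1.03%; 0.281 to 2.61%), 5 of 59 fibroblast-like cells (8.47%; 2.81 to 18.7%) and 7 of 21 endothelial-like cells (33.3%; 14.6 to 57%).

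Adrb1 and Adrb3 encode receptors of catecholamines that also couple to Gs, and both were scarce. Adrb1 had 1.22 and 0.826 CPM in SMC-like cells, 0.457 and 0.609 CPM in the fibroblast-like class and 0 and 41 CPM in endothelial-like cells. Adrb3 had 0 CPM in the 3 classes of both pools.

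Adcy5, the cyclase among the members, was like Ramp1 highest in SMC-like cells. It had 555 and 297.8 CPM in pools A and B of the SMC-like class, 29.9 and 44.1 CPM in the fibroblast-like class and 7.47 and 15 CPM in endothelial-like cells, and the ranges of the classes did not overlap. Per cell, Adcy5 ran from 0 to 2337 CPM in SMC-like cells with a median of 356.2 CPM, and 83.5% of them had 100 CPM or more (79.5 to 87.1%), against 13.6% of fibroblast-like cells (8 of 59; 6.04 to 25%) and 0 of 21 endothelial-like cells. Its level outside SMC-like cells, 1.34% to 14.8% of theirs, lay below or within the range of the smooth muscle markers given above.

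Adcy5 was also the largest part of the 10 adenylyl cyclase genes in SMC-like cells, and the other classes had another cyclase in its place. Of the summed CPM per kb, Adcy5 made up 73.3% and 57.9% in pools A and B of the SMC-like class, 9.57% and 9.31% in fibroblast-like cells and 1.29% and 12.5% in endothelial-like cells. Adcy7 made up 7.54% and 13.4% in SMC-like cells, 55.6% and 64.5% in fibroblast-like cells and 0.179% and 2.98% in endothelial-like cells. Adcy4 made up 0.656% and 1.09% in SMC-like cells, 0.45% and 11.3% in fibroblast-like cells and 86.6% and 78.3% in endothelial-like cells. Ramp1 and Adcy5 were both at 100 CPM or more in 80.5% of SMC-like cells. As 96.4% of these cells had that level of Ramp1 and 83.5% of Adcy5, a large joint share follows from the separate shares. Their levels were not ordered alike, with rank correlations of 0.048 in pool A and -0.16 in pool B.

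**Figure D3:**
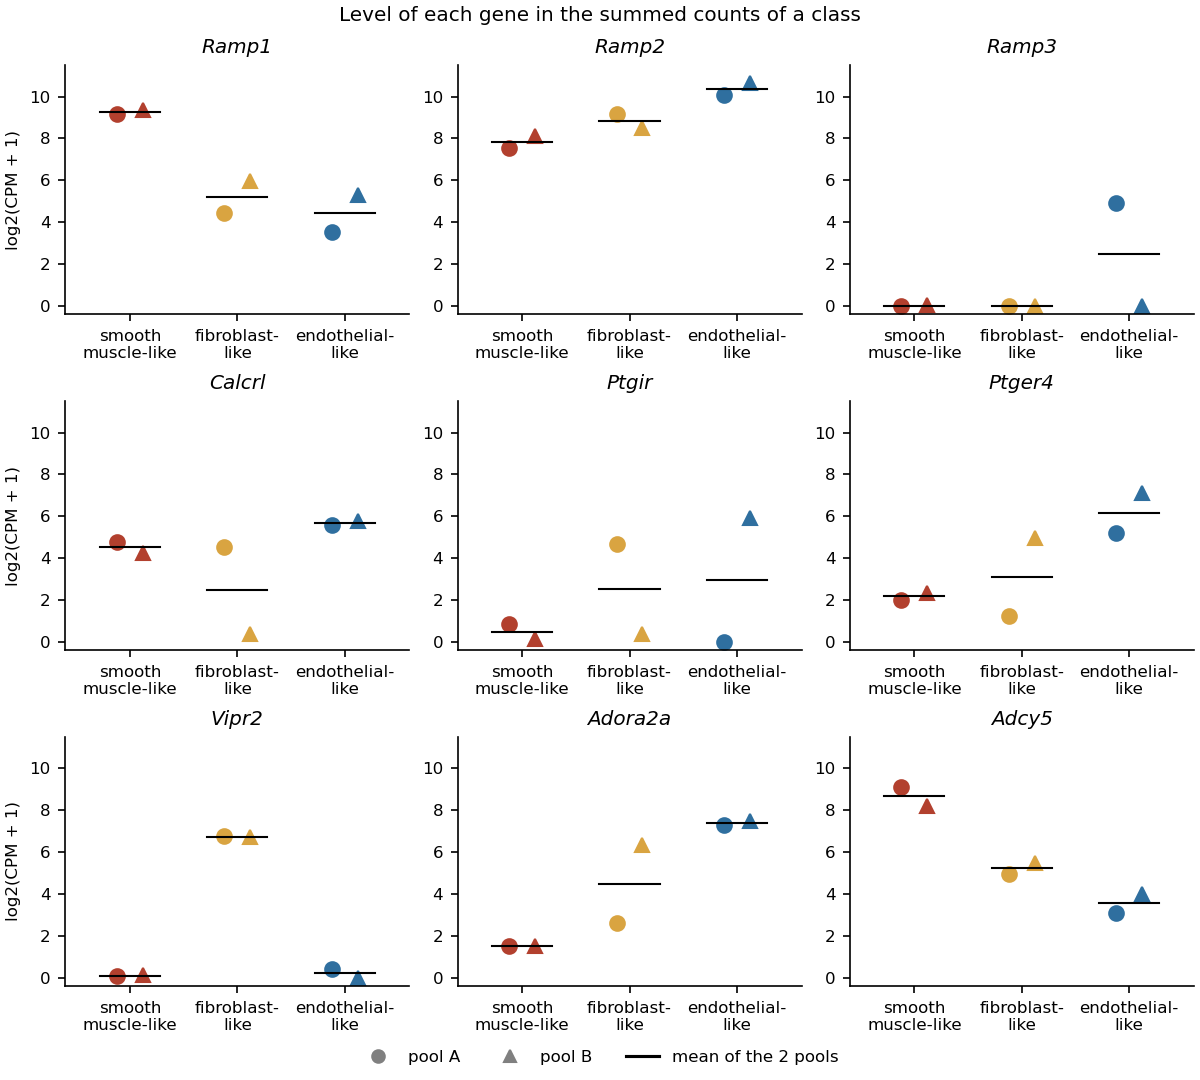
Level of each of the 9 genes as log2(CPM + 1) in the summed counts of SMC-like, fibroblast-like and endothelial-like cells; circles are pool A, triangles pool B and black lines the mean of the 2 pools, and Ramp2 is as deposited. Ramp1 and Adcy5 are highest in SMC-like, Vipr2 in fibroblast-like and Ramp2 and Adora2a in endothelial-like cells.

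**Figure D4:**
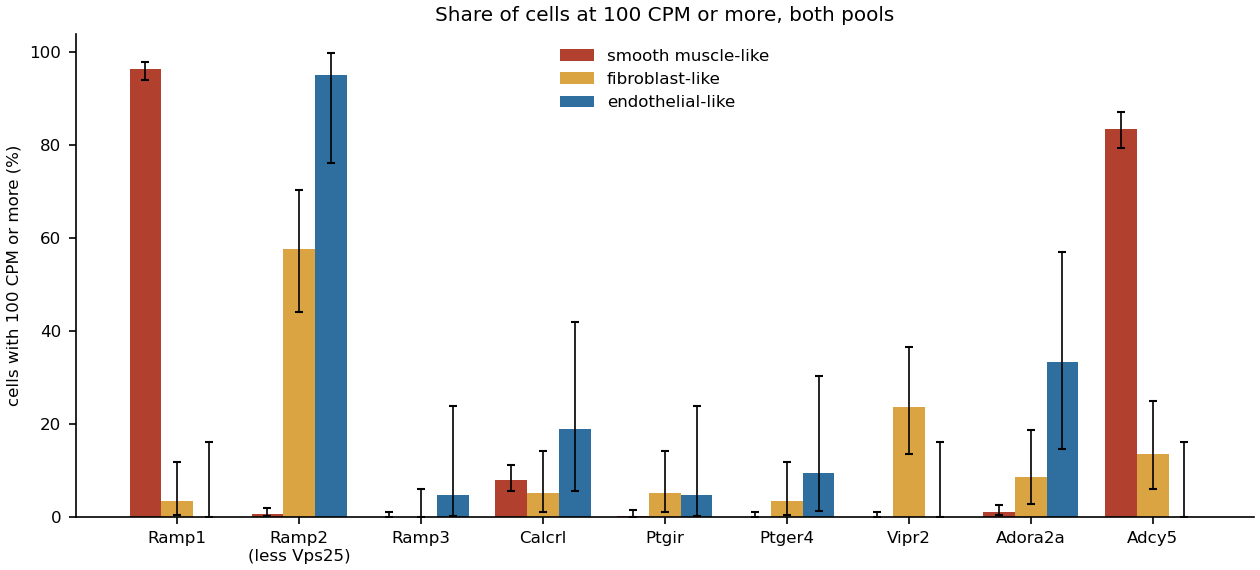
Share of cells with 100 CPM or more of each gene in SMC-like, fibroblast-like and endothelial-like cells of both pools, with exact 95% intervals for counting error; Ramp2 is less Vps25. Ramp1 (96.4%) and Adcy5 (83.5%) reach this level in most SMC-like cells, and the 5 receptors do so in under 10% of them.

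The classes were compared with edgeR's quasi-likelihood test on the counts summed per pool and class, with the pool as a block and Benjamini-Hochberg adjustment over all genes tested. The clustering used other genes, but the same cells. In SMC-like over fibroblast-like cells 8 of the 9 members were tested, 2 were higher and 2 lower, where 7.59% of 8012 genes were called, 3.22% higher and 4.37% lower. The median log2 fold change was -1.15 over the members and 0.27 over all genes tested. Ramp1 was higher by 3.97 ± 0.39 (log2 fold change ± SE; adjusted p = 5.63e-05 in edgeR) and Adcy5 by 3.34 ± 0.42 (adjusted p = 0.000323 in edgeR). Vipr2 was lower, at -10.72 ± 0.84 (adjusted p = 1.09e-05 in edgeR), a fitted value that depends on the prior count because SMC-like cells had so few counts. Ramp2 was lower at -1.19 ± 0.31 as deposited (adjusted p = 0.0408 in edgeR) and at -7.35 ± 0.42 less Vps25 (adjusted p = 2.89e-06 in edgeR). The subtraction was chosen after the near-equal SMC-like counts of both genes were seen. That choice fixed a low SMC-like value less Vps25, so its adjusted p is no separate support. Vps25 itself had a log2 fold change of 0.44 ± 0.36 and was not called (adjusted p = 0.564 in edgeR). Calcrl (2.38 ± 1.75), Ptgir (-3.86 ± 2.05), Ptger4 (-1.11 ± 1.87) and Adora2a (-3.65 ± 1.40) were not called, and Ramp3 had too few counts to be tested. The deposited Ramp2 was past the threshold in 6 of the 11 alternatives that kept its deposited counts (largest adjusted p = 0.23 in edgeR), and Adcy5 missed it with 3 classes in 1 fit (adjusted p = 0.0577 in edgeR). DESeq2 also called Ptgir (-3.94, adjusted p = 0.0448) and Adora2a (-3.71, adjusted p = 0.00125), which makes 6 members.

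In SMC-like over endothelial-like cells 7 members were tested, 2 were higher and 3 lower, where 7.6% of 7720 genes were called, 3.42% higher and 4.18% lower. The median was -2.70 over the members and 0.79 over all genes tested. Ramp1 was higher by 4.78 ± 0.55 (adjusted p = 3.10e-16 in edgeR) and Adcy5 by 5.14 ± 0.66 (adjusted p = 4.76e-13 in edgeR). Adora2a was lower at -6.67 ± 1.07 (adjusted p = 1.98e-08 in edgeR), with 81% of the endothelial-like counts of pool B in 1 cell. Ramp2 was lower at -2.70 ± 0.34 as deposited (adjusted p = 1.94e-13 in edgeR) and at -9.19 ± 0.52 less Vps25 (adjusted p = 1.47e-65 in edgeR). The choice of the subtraction fixed the low SMC-like value less Vps25 here as well. The small size of the adjusted p-values in this comparison comes largely from the spread shared over all genes tested, not from the 2 pools. Ramp1, Adcy5, Adora2a and Ramp2 stayed past the threshold in all 12 alternatives, but by far less in some. Their largest adjusted p there, from edgeR or DESeq2, was 0.0388 for Ramp1, 0.0232 for Adcy5, 0.0405 for Adora2a and 0.026 for Ramp2. Ptger4 was lower at -4.46 ± 1.45 (adjusted p = 0.031 in edgeR). A single cell held all endothelial-like counts of Ptger4 in pool B, and another held 63.3% of those in pool A. Ptger4 was past the threshold in 7 of 12 alternatives (largest adjusted p = 0.19 in edgeR). Calcrl (-1.32 ± 1.46) and Ptgir (-4.02 ± 5.78) were not called, and Ramp3 and Vipr2 were not tested.

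In fibroblast-like over endothelial-like cells 8 members were tested and 1 was higher, where 4.89% of 5648 genes were called, 2.64% higher and 2.25% lower. The median was -0.79 over the members and 0.28 over all genes tested. The called gene was Vipr2, at 8.85 ± 1.84 (adjusted p = 0.032 in edgeR), again with a fitted value that depends on the prior count. Ramp2 had -1.48 ± 0.41 as deposited (adjusted p = 0.107 in edgeR) and -1.80 ± 0.44 less Vps25 (adjusted p = 0.0584 in edgeR), and neither passed. Vipr2 missed the threshold in 1 of 11 alternatives. The largest adjusted p of Vipr2 over these alternatives was 0.0524, in edgeR.

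**Figure D5:**
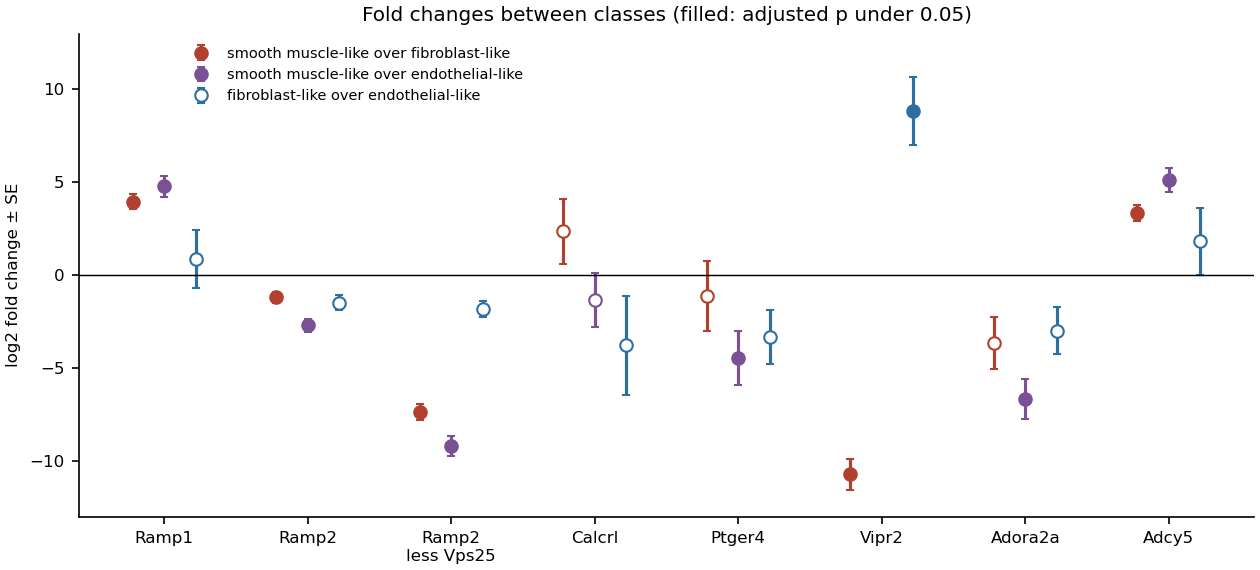
Log2 fold change ± SE of the members between classes, from edgeR, for SMC-like over fibroblast-like (red), SMC-like over endothelial-like (purple) and fibroblast-like over endothelial-like cells (blue); filled points have an adjusted p under 0.05, and Ptgir and Ramp3 are left out. Ramp1 and Adcy5 lie above 0 in the 2 SMC-like comparisons. Ramp2 lies further below 0 there once Vps25 is subtracted, at -7.35 and -9.19. The subtraction was chosen after the near-equal SMC-like counts were seen, so this shift was fixed by the choice.

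Within SMC-like cells the 2 subclusters S1 (87.3% of these cells in pool A and 10.2% in pool B) and S0 (12.7% and 89.8%) were compared in the same way. None of the 6 members tested was called, where 0% of 7561 genes were called by edgeR, 3.48% had an unadjusted p under 0.05 and DESeq2 called 1 gene. Ramp1 had 582 and 685 CPM in S1 of pools A and B, against 554 and 650.2 CPM in S0. Adcy5 had 576 and 394 CPM in S1, against 424 and 287.6 CPM in S0, a log2 fold change of 0.47 ± 0.14 (adjusted p = 1 in edgeR). Calcrl had 28.2 and 12.5 CPM in S1, against 15.2 and 18.7 CPM in S0. Adcy5 was higher in pool A than in pool B in both subclusters. The gene that DESeq2 called was Gpbar1, a Gs-coupled receptor of bile acids, named here after its values were seen. It had 0.0208 and 0 CPM in S1 of pools A and B, against 29.7 and 3.8 CPM in S0, where 1 cell held 98.3% of the counts of pool A.

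The 3 genes whose per-cell level was most like each widely detected member across thinned SMC-like cells were sought among 2661 genes. For Ramp2 the first was Vps25, with a rank correlation of 0.91 as the mean of the pools, and the next were Lamtor4 (0.21) and Napa (0.2). For Ramp1 they were Id1 (0.2), Gm27597 (0.2) and Sf3b5 (0.19), and for Adcy5 they were Cald1 (0.23), Sh3pxd2a (0.22) and Cltc (0.21). The cells share plate and mice, and correlations of this size are weak.

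The sequences upstream of the members are shown for Ramp1 and Adcy5, which were highest in SMC-like cells, and for Vipr2, which was highest in fibroblast-like cells. RefSeq (GRCm38.p6) gave a window of 250 bases before the start for 7 of the 9 members; Ramp2 and Adora2a were not among them. Each window was searched on both strands for TGACG (the core of a CREB half-site), the CArG box of serum response factor, CATTCC (a TEAD motif), TGGGAA (an RBPJ motif) and GGGCGG (a GC box), and matches are in capitals, on the strand printed or as their reverse complement.
Ramp1, chr1:91179572-91179821, plus strand: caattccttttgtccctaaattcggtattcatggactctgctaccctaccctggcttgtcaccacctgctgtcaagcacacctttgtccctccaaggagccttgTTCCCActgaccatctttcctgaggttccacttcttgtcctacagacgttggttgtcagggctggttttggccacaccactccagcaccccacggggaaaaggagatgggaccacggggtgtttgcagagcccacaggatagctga
Adcy5, chr16:35154614-35154863, plus strand: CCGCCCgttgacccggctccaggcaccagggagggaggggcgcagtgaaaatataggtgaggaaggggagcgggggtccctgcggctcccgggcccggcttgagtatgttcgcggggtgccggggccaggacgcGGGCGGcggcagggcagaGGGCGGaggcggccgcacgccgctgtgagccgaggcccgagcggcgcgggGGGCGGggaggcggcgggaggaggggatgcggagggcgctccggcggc
Vipr2, chr12:116077476-116077725, plus strand: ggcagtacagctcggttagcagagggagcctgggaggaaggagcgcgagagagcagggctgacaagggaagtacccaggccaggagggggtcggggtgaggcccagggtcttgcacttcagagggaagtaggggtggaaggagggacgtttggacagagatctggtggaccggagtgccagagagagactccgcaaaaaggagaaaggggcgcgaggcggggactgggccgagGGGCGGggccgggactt

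A GC box was in 6 of the 7 windows, all but that of Ramp1, and in 32.7% of 32817 windows of this length. TGGGAA was in the window of Ramp1 alone (21.6% of windows) and CATTCC in that of Ramp3 alone (12.6%). TGACG (17.7% of windows) and the CArG box (1.47%) were in 0 of the 7. The Adcy5 window held 78% G and C, that of Vipr2 65.2% and that of Ramp1 54%. Whether a factor binds there was not measured.

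The other genes of the pathway were described from lists, and genes given below without a value were named after their values were seen. Of 28 other Gs-coupled receptors, 11 were tested in SMC-like over fibroblast-like cells and 1 was lower, Adcyap1r1 (a receptor of PACAP), 10 were tested in SMC-like over endothelial-like cells and 2 were lower, and 5 were tested in fibroblast-like over endothelial-like cells and 1 was lower. Gpr4, a receptor that senses protons, had 5.21 ± 3.59 CPM in SMC-like cells (SD, n = 2) and 260.1 ± 113.7 CPM in endothelial-like cells (log2 fold change -5.89 ± 0.82), and it was lower in fibroblast-like than in endothelial-like cells too (-10.72 ± 1.42). Hrh2, the H2 histamine receptor, was lower in SMC-like than in endothelial-like cells (-10.52 ± 2.71). In SMC-like cells Pth1r, the receptor of parathyroid hormone, and Crhr2, a receptor of corticotropin-releasing hormone and urocortins, were the highest of this list, at 5.69 ± 2.28 and 3.59 ± 0.0304 CPM per kb.

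Of 7 prostanoid, adenosine and adrenomedullin receptors that do not couple to Gs, 5 were tested in SMC-like over fibroblast-like cells and 2 were lower. Ackr3, a scavenger receptor that takes up CXCL12 and adrenomedullin, had 19.4 ± 9.53 CPM in SMC-like and 572 ± 22.2 CPM in the fibroblast-like class (log2 fold change -5.12 ± 0.35). Ptgfr, the receptor of prostaglandin F2 alpha, had 0.131 ± 0.0181 CPM in SMC-like and 102.8 ± 93.8 CPM in the fibroblast-like class (-9.36 ± 0.89). Of 4 tested in SMC-like over endothelial-like cells 1 was higher: Tbxa2r, the constrictor thromboxane receptor, with 131.2 and 122.8 CPM in SMC-like and 0.974 and 2.51 CPM in endothelial-like cells of pools A and B (6.22 ± 1.35). Of 4 tested in fibroblast-like over endothelial-like cells Ackr3 (2.95 ± 0.56) and Ptgfr (9.04 ± 1.92) were higher.

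Of 24 genes for ligands and their synthesis or breakdown, 3 of 16 tested were higher and 5 lower in SMC-like over fibroblast-like cells, 5 of 14 were higher and 1 lower in SMC-like over endothelial-like cells, and 2 of 15 were higher in fibroblast-like over endothelial-like cells. Ptgis, the prostacyclin synthase, had 1524 ± 56.9 CPM in SMC-like, 483 ± 97.6 CPM in fibroblast-like and 70.6 ± 64.5 CPM in endothelial-like cells, and it was called in all 3 comparisons (1.52 ± 0.21, 4.68 ± 0.39 and, for fibroblast-like over endothelial-like cells, 3.20 ± 0.67). The prostacyclin receptor gene Ptgir, by contrast, was near 0 in the cells richest in Ptgis. Pam, which amidates peptides such as adrenomedullin, had 1483 ± 159.9 CPM in SMC-like and 57.9 ± 35.1 CPM in endothelial-like cells (4.69 ± 0.39), and it was higher in fibroblast-like than in endothelial-like cells too (4.02 ± 0.61). Entpd1, an ectonucleotidase upstream of adenosine, was higher in SMC-like than in fibroblast-like cells (3.26 ± 0.42). The peptidase genes Mme (-5.66 ± 1.17) and Dpp4 (-9.33 ± 1.99) were lower in SMC-like than in fibroblast-like cells, and Ece1 (-2.52 ± 0.53) lower than in endothelial-like cells. The cyclooxygenase gene Ptgs1 and the prostaglandin E synthase gene Ptges were also among those lower in SMC-like than in fibroblast-like cells.

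Among 19 genes for G proteins and other adenylyl cyclases, 1 of 16 tested was higher and 1 lower in SMC-like over fibroblast-like cells. Gnai1, an inhibitory G protein subunit, was higher (2.39 ± 0.57) and Adcy7 was lower (-2.03 ± 0.37), with 59.1 ± 7.94 CPM in SMC-like and 224.8 ± 87.7 CPM in the fibroblast-like class. In SMC-like over endothelial-like cells 1 of 16 was higher, Gnai1 (3.75 ± 1.19), and 2 were lower, Adcy4 (-5.50 ± 0.96) and Gng11 (-3.79 ± 0.48), a G protein gamma subunit. In fibroblast-like over endothelial-like cells Adcy7 was higher (6.91 ± 1.03) and Gng11 lower (-2.71 ± 0.50) of 14 tested. Gnas, which encodes the Gs alpha subunit, was not called in any of the 3 comparisons, at 124.1 ± 3.37 CPM per kb in SMC-like and 152.8 ± 26.9 CPM per kb in fibroblast-like cells.

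Of 30 genes for effectors of cAMP, 4 of 30 tested were higher and 2 lower in SMC-like over fibroblast-like cells, and 2 of 29 were higher and 2 lower in SMC-like over endothelial-like cells. Hspb6, a small heat shock protein that protein kinase A phosphorylates in relaxing muscle, had 750.4 and 1002 CPM in pools A and B of the SMC-like class, 25.3 and 57.8 CPM in fibroblast-like and 50.3 and 75.2 CPM in endothelial-like cells (4.35 ± 0.32 and 3.68 ± 0.44). Akap12, which anchors protein kinase A, was lower in SMC-like than in fibroblast-like (-5.28 ± 0.35) and endothelial-like cells (-2.96 ± 1.02), and Akap6 was higher than in fibroblast-like cells (4.97 ± 1.31). Abcc9, a subunit of the KATP channel, was lower in SMC-like than in fibroblast-like cells (-1.50 ± 0.27). It was called higher in SMC-like than in endothelial-like cells (2.73 ± 0.84), but the pools differed: Abcc9 had 235.2 and 282.7 CPM in pools A and B of the SMC-like class, against 2.27 and 377 CPM in endothelial-like cells, so the direction was the opposite in pool B. The 5 pericyte markers together had 957.4 and 609.8 CPM in pools A and B of the SMC-like class, against 635.5 and 2306 CPM in endothelial-like cells, and their part in the Abcc9 level was not tested. Rapgef3, which encodes the cAMP sensor Epac1, was lower in SMC-like than in endothelial-like cells (-5.78 ± 1.03). Of 25 tested in fibroblast-like over endothelial-like cells 0 were called by edgeR, 5 had an unadjusted p under 0.05 and 5 were called by DESeq2.

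Of the phosphodiesterases, which break down cyclic nucleotides, Pde3a was called in both SMC-like comparisons, as 1 of 13 and 1 of 12 tested. It had 339.4 ± 3.98 CPM in SMC-like, 44.1 ± 3.95 CPM in fibroblast-like and 39.1 ± 34.6 CPM in endothelial-like cells (2.80 ± 0.34 and 3.34 ± 0.65). Of 9 tested in fibroblast-like over endothelial-like cells 0 were called by edgeR, 2 had an unadjusted p under 0.05 and 2 were called by DESeq2. Among 11 receptor partners and desensitisation genes 0 of 11 were called in SMC-like over fibroblast-like cells by edgeR or DESeq2 and 0 had an unadjusted p under 0.05, and Slc9a3r2, a scaffold protein, was lower in SMC-like (-5.33 ± 0.37; 1 of 11 tested) and fibroblast-like (-5.28 ± 0.50; 1 of 10 tested) than in endothelial-like cells. Of 12 genes that CREB can induce, 3 of 11 were higher in SMC-like over fibroblast-like cells, namely Dusp1, Fos (1.77 ± 0.27) and Rgs2 (4.96 ± 1.25). In SMC-like over endothelial-like cells 5 of 11 were lower, namely Fos, Dusp1, Nr4a1, Junb (-2.11 ± 0.44) and Sik1 (-3.67 ± 0.89). Fos (-2.76 ± 0.36) and Dusp1 (-2.33 ± 0.37) were lower in fibroblast-like than in endothelial-like cells, as was Nr4a1, 3 of 9 tested. Many of these genes also respond to tissue dissociation, and the part of dissociation was not tested.

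The medians of the lists are given beside that of all genes tested. In SMC-like over fibroblast-like cells the median log2 fold change was 1.23 for other Gs-coupled receptors, 1.29 for receptors not coupled to Gs, -0.21 for ligand genes, 0.40 for G proteins and cyclases, 0.56 for effectors, 0.28 for phosphodiesterases, 0.18 for receptor partners and 0.99 for CREB targets, against 0.27 for all genes. In SMC-like over endothelial-like cells it was 0.51, 0.11, 1.86, 0.48, 0.27, 3.81, 0.57 and -0.98 for the lists in that order, against 0.79 for all genes. In fibroblast-like over endothelial-like cells it was -1.39, 3.58, 3.20, -0.46, -0.62, 2.18, 0.66 and -2.13, against 0.28 for all genes. Most phosphodiesterase genes were not called although their median in SMC-like over endothelial-like cells was the furthest from that of all genes.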

How the data were processed

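Counts per gene and cell were deposited by the authors; the submitters' processing notes name featureCounts, Subread, Bowtie2, Bowtie and bcl2fastq, with no versions, and GRCm38 (mm10). The sources used here give no settings for overlapping genes, strand or duplicates. Symbols, coordinates and exonic lengths came from GENCODE M21. The members, lists and markers were chosen with earlier results of these data known. Of the listed genes, Pde2a was not matched to an identifier.

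Cells of pools A and B held 51886 to 713700 counts. Genes were divided by a hash of the symbol into 23196 for clustering (with all markers) and 23284 for testing (with all listed genes). Leiden clusters (scanpy 1.11.5, resolution 1.0; subclusters 0.5) were named from at least 3 markers. A cluster stayed unnamed when fewer than 3 of its type's markers had a median of 100 CPM, or markers of another type led it, a rule set after the data were seen. A class needed 5 cells per pool. No doublet caller was run.

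Counts were summed per pool and class and fitted in edgeR 4.0.16 (R 4.3.3; filterByExpr, TMM, pool as block, quasi-likelihood F test). The SE is the fold change over the root of F. The threshold was an adjusted p of 0.05. DESeq2 1.42.0 was an alternative. The labels put all classes of 1 pool on the same mice and plate, which pairs them; their deviations between the pools correlated over 6735 genes with r = 0.129, 0.138 and 0.0531 for the 3 pairs of classes. P-values rest on 2 pools, and the quasi-likelihood fit moderates the spread of a gene by that of all genes tested. A very small p-value therefore reflects this shared spread more than replication between the pools. The fit was tested on simulated sums with the same spread for every gene. Results follow in the order of the class comparisons, then S1 over S0. A log2 change of 1 was called for 3, 1, 6 and 6 of 67 genes. A change of 2 was called for 45, 45, 46 and 48 of 67. A change of 3 was called for 64, 66, 66 and 66 of 66. A member that was not called can thus differ by a log2 change of 1 or 2. Intervals are exact Clopper-Pearson or Poisson at 95%, and the floor is 3 counts.

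Named genes were the 9 members, Adrb1 and Adrb3, from each list the called genes with the 2 largest fold changes in each direction per comparison at 10 CPM or more in both pools of a class, and the 2 highest per kb in each class. To these came the 3 nearest genes by rank correlation for members found in 80% of SMC-like cells, among genes found in 50%; a few other genes are named after their values were seen. Some items are not reported here.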

Additional observations from a re-analysis of the deposited data

Results flagged for a closer look

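For some members the 2 pools differed in opposite directions under the same contrast. None of these differences was tested. For Ptger4 in SMC-like over fibroblast-like cells the log2 differences were 1.12 in pool A and -2.95 in pool B, 4.07 apart; 91% of the fibroblast-like counts of pool B came from 1 cell. For Ptgir in SMC-like over endothelial-like cells they were 3.86 in pool A and -8.46 in pool B, 12.32 apart, and in fibroblast-like over endothelial-like cells 5.50 and -5.99, 11.49 apart; the endothelial-like counts came from 1 cell of pool B. In subcluster S1 over S0 the pools were 0.96 apart for the deposited Ramp2, 1.55 apart for Calcrl and 7.78 apart for Adora2a.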

How the results depend on the processing

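The shares of tested genes called are given first with the main settings. In SMC-like over fibroblast-like cells this was 7.59% (608 genes), against 2.02% of 6735 genes with 3 classes in 1 fit, 4.11% of 8708 at Leiden resolution 0.5, 7.27% of 15818 (1150 genes) with the clustering genes included and 18.9% of 6458 (1222 genes) by DESeq2; the 4 called members became 2 with 3 classes in 1 fit and 6 by DESeq2. In SMC-like over endothelial-like cells it was 7.6% (587 genes), against 5.54% (373 genes) with 3 classes in 1 fit, 4.96% (389 genes) at resolution 2.0, 7.7% (1192 genes) with the clustering genes and 16.2% (1006 genes) by DESeq2. In fibroblast-like over endothelial-like cells it was 4.89%, against 4.37% (439 genes) with no filter on low counts, 5.41% (614 genes) with the clustering genes and 15.8% (804 genes) by DESeq2; the 1 called member became 2 with no filter, 3 by DESeq2, 2 at resolution 0.5 and 0 at resolution 2.0. In S1 over S0 DESeq2 called 1 gene (0.0132%), and resolution 0.3 gave 1 subcluster and so no value. Without the pool as a replicate block the shares were 4.02%, 3.42% and 3.84% in the order of the class comparisons; Ramp2 as deposited (SMC-like over fibroblast-like cells, adjusted p = 0.122 in edgeR) and Ptger4 (SMC-like over endothelial-like cells, 0.0941) were then not called. Ptgir in fibroblast-like over endothelial-like cells, -0.10 and not called, was 0.17 by DESeq2 and 0.39 at resolution 2.0; the cause was not tested. Of 310 member fold changes under alternatives, 290 kept their direction and side of the threshold, 12 were no longer past it, 6 newly were and 2 changed sign. Some of the 310 could hardly move. Subtracting Vps25 left the counts of the other members as they were, and a limit of 100000 counts and 2000 genes per cell removed no S1 or S0 cell. The 290 therefore overstate how far the results were probed. From 1 pool alone, with no test, Ramp1 was higher by 3.36 to 4.85 and Adcy5 by 2.69 to 4.24 on the log2 scale in SMC-like over fibroblast-like cells. DESeq2 size factors put the median of all genes in SMC-like over endothelial-like cells at 0.67, against 0.79. With the unnamed cells added to SMC-like cells, an alternative chosen after the data were seen, Ramp2 as deposited was not called against fibroblast-like cells (adjusted p = 0.0764 in edgeR). The 21 endothelial-like cells limit what can be said of Calcrl, Ptgir and Ptger4.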
